A study of Homo sapiens with 6 samples.

Results

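The translation initiation and elongation factors were followed here in SKBR3, a breast cancer cell line of epithelial origin in which the HER2 gene is amplified. The genes were chosen by symbol: protein-coding genes named EIF1 to EIF6, without the EIF2AK kinases and the EIF4EBP inhibitors, and genes named EEF1 or EEF2, without EEF1E1, the EEF1AKMT methyltransferases and EEF2K. The rule found 55 genes among 60612 in the counts. The treated group, named SKBR3_HR in the labels and trastuzumab below, was SKBR3 kept under a climbing dose of trastuzumab, an antibody against HER2, for 30 weeks, and gave 3 libraries. The other group, parental below, was SKBR3 with no treatment and also gave 3 libraries. Both groups are the same line, and the labels state neither whether the drug was present at harvest nor whether the SKBR3_HR cells were a clone or a pool. Nothing in the labels says that replicates came from separate cultures, so each p-value covers no more than the spread among these libraries, and that spread may be technical.

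Initiation starts when eIF2, carrying GTP and the initiator tRNA, joins the small ribosomal subunit together with eIF1, eIF1A, eIF5 and the many-subunit scaffold eIF3. The cap-binding complex eIF4F, made of the cap-binding protein eIF4E, the scaffold eIF4G and the RNA helicase eIF4A, brings the mRNA to that subunit, and eIF5B then joins the large subunit once the start codon is found. Elongation follows: eEF1A delivers aminoacyl-tRNA, the eEF1B complex reloads eEF1A with GTP, eEF2 moves the ribosome along the mRNA and eIF5A relieves stalling. In HER2-driven breast cancer cells the PI3K and mTOR pathway below HER2 is known to control eIF4E, through its binding proteins, and eEF2, through its kinase.

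The libraries held between 71015138 and 82857810 counts under trastuzumab and between 71767118 and 72353624 in parental cells, so that 3 counts in a library, taken as the detection floor, corresponded to at most 0.0428 CPM (the count scaled to a common library size with a normalisation factor). Of 17854 genes with enough counts to test, 49.3% passed an adjusted p of 0.05 (edgeR, Benjamini-Hochberg), 23.9% being higher under trastuzumab and 25.4% lower. Among the 9009 genes whose mean was 10 CPM or more the share was 72.7%, with 35.8% higher and 37.0% lower. The 10 luminal epithelial markers were all above 10 CPM, at a summed 22468 to 24102 CPM under trastuzumab and 19298 to 21076 CPM in parental libraries. The 7 fibroblast markers summed to 6.48 to 10.3 CPM under trastuzumab and 9.16 to 19.2 CPM in parental libraries, and the 5 basal ones to 5.08 to 22.9 and 6.57 to 7.72 CPM. Of the 6 leukocyte markers, which summed to 17.0 to 18.8 CPM under trastuzumab and 55.4 to 76.0 CPM in parental libraries, CSF1R alone was above 10 CPM, and PTPRC averaged 0.13 and 0.18 CPM. Of the 5 endothelial markers, at 79.0 to 86.1 and 28.6 to 31.7 CPM, CDH5 alone was above 10 CPM, and PECAM1 averaged 0.18 and 0.07 CPM.

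Of the 55 genes, 53 were tested; EIF4E1B, an eIF4E-like gene, had 0 counts in all libraries, and EIF1AY did not pass the filter on low counts. Under trastuzumab 17 rose and 14 fell, and the other 22 did not pass the test. These counts stand against the 49.3% of all tested genes and the 72.7% of genes above 10 CPM that were called, so that being called is not in itself a property of these genes. The median log2 fold change was 0.02, against -0.01 over all tested genes, and the range ran from -0.85 to 0.72, with no gene reaching a change of 2-fold, which 7.78% of all tested genes reached with a call. The CPM of the groups did not overlap for 19 genes that were higher and 17 that were lower under trastuzumab, where the share over all tested genes was 57.5%. In the counts as deposited all called elongation and eIF5A genes rose, all called eIF2 and eIF4F genes fell, and eIF3 had calls both ways. The edgeR test gave 0 falls among elongation and eIF5A genes and 0 rises among eIF2 and eIF4F genes, also at an unadjusted p below 0.05, and limma-voom gave the same counts of 0. DESeq2 did so too but for 1 eIF4F gene that it called higher. After the correction for GC content and length described below, elongation had 4 genes higher and 2 lower, eIF5A 2 and 0, eIF2 1 and 1, eIF4F 2 and 4 and eIF3 9 and 3. No test of a difference between complexes was made. In bulk RNA a lower level in each cell and fewer cells with the transcript cannot be told apart.

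**Figure D1:**
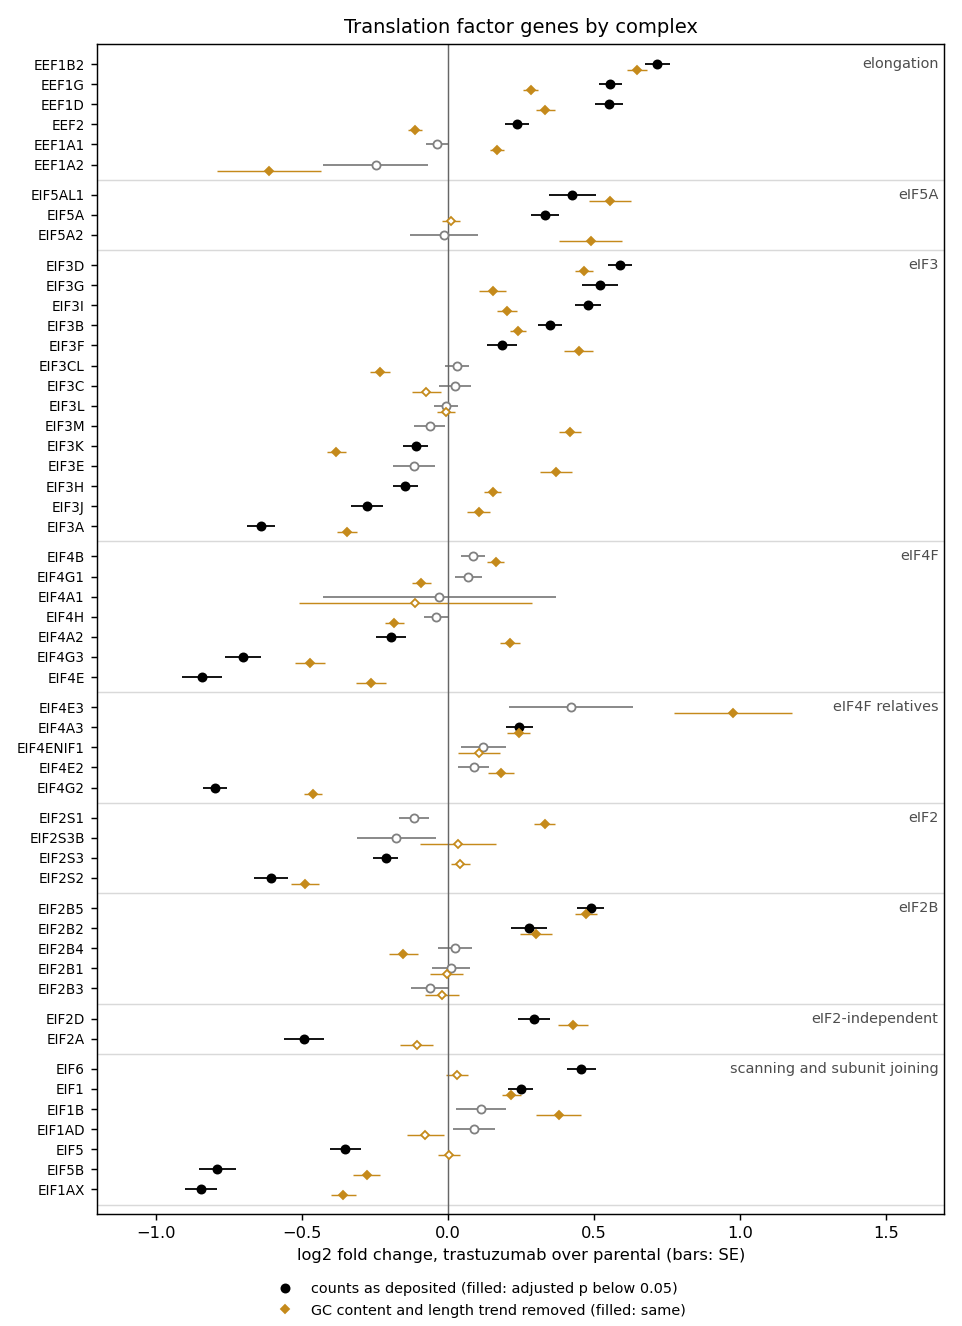
Log2 fold change (trastuzumab over parental, horizontal axis, with SE) of the 53 tested factors, grouped by complex, from the counts as deposited (circles) and after the trend on GC content and length was removed (diamonds), filled where the adjusted p was below 0.05. EEF1B2 (0.72), EIF3D (0.59), EIF4G2 (-0.80) and EIF1AX (-0.85) keep their side in both, and EEF2, EIF3H, EIF3J and EIF4A2 change side.

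One property of the transcripts moved with the fold changes throughout. The GC content of the factors' transcripts ranged from 36.4% in EIF1AX to 64.2% in EEF1A2, and the log2 fold change rank-correlated with it at 0.59 over the 53 tested genes, which share the same 6 libraries. Over 13569 protein-coding genes the rank correlation was 0.57. Of the 26 factors with a GC content below the members' median of 48.6%, 3 rose and 13 fell, with a median log2 fold change of -0.16. Of the 27 at or above it, 14 rose and 1 fell, with a median of 0.24. Whether this trend arose in the cells or in making the libraries cannot be told apart in this design.

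A second fit, from which each library's smooth trend on GC content and exonic length had been removed, is therefore given beside the first one as the corrected value. It called 38.0% of 17649 genes, 18.1% higher and 19.9% lower. Of the factors, 26 were then higher, 14 lower and 13 not past the test, with a median of 0.11 and a rank correlation with GC content of -0.14. In both fits 22 genes were called in the same direction. For 4 genes the calls were opposite: EIF3H, EIF3J and EIF4A2 were lower in the first fit and higher in the corrected one, and EEF2 was higher in the first and lower in the corrected one.

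**Figure D2:**
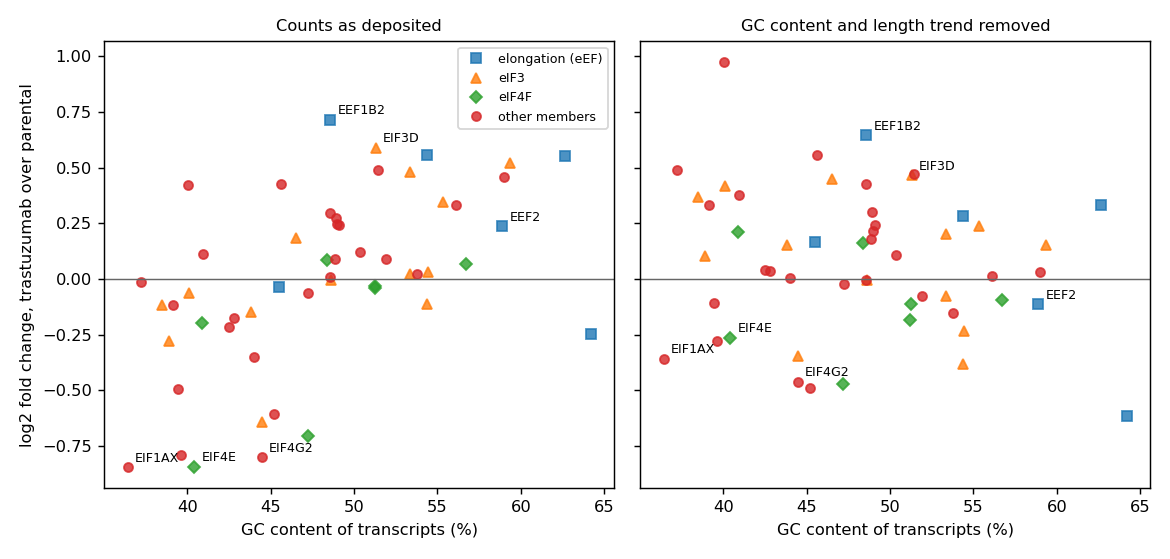
Log2 fold change (trastuzumab over parental, vertical axes) against transcript GC content in percent (horizontal axes) for the 53 tested factors, from the counts as deposited (left) and after the trend on GC content and length was removed (right). The rank correlation is 0.59 on the left and -0.14 on the right, and EEF1B2, EIF3D, EIF4E, EIF4G2 and EIF1AX stay on the same side of 0 in both.

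Messenger RNAs of ribosomal proteins and of several translation factors are known to begin with a C followed by a run of pyrimidines, the 5′ terminal oligopyrimidine tract, through which mTOR and LARP1 control their translation and stability. RefSeq start sites (GRCh38.p14) matched 46 of the 55 factors. A run was counted where, on the gene's strand, a C lay within 2 bases of the start and was followed by at least 4 bases that were each C or T. It was found in 16 of the 46 factors (34.8%), in 13% of 27305 genes and in 51 of 63 ribosomal protein genes (81%). A gene with several annotated starts was counted if any of them had a run, and over all 35116 starts the share was 10.5%. A match is a description of an annotated start and not a measured cap site. The windows below run from 40 bases before the start to 20 bases from it, 5′ to 3′, with the run in capitals. For a gene with several starts, the first one with a run is shown, or the first one if none had a run. The genes were picked after the values were seen, to show elongation factors that differed in response and initiation factors that differed in direction.
EEF1B2 (chr2:206159855-206159914, plus strand): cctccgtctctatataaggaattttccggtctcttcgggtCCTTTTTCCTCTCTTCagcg
EEF1G (chr11:62573872-62573931, minus strand): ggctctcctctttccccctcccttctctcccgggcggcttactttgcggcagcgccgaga
EEF2 (chr19:3985444-3985503, minus strand): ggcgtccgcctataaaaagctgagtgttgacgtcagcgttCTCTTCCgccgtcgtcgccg
EEF1A1 (chr6:73521013-73521072, minus strand): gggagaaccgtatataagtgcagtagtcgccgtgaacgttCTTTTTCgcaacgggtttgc
EIF3D (chr22:36529147-36529206, minus strand): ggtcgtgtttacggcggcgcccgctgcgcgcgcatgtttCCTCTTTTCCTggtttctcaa
EIF3K (chr19:38619148-38619207, plus strand): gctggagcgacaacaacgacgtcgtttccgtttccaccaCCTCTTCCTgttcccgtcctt
EIF4A2 (chr3:186783537-186783596, plus strand): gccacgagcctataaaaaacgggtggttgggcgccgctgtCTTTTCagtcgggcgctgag

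The run was 16 bases long in EEF1B2, 11 in EIF3D, 9 in EIF3K, 7 in EEF2 and EEF1A1 and 6 in EIF4A2. EEF1G had no such run at any matched start, while a stretch of C and T lay further upstream in its window. At its start shown, the C after the first base was followed by TTT and then G, just short of the run asked for. Genes with and without the run moved both ways. Of the 16 tested factors with the run, 5 rose, 6 fell and 5 missed the threshold. With the correction 10 of them were higher and 3 lower. Their median log2 fold change was -0.05 (corrected 0.17), and the range ran from -0.80 to 0.72. Of the 28 tested factors with a matched start and no run, 10 rose, 5 fell and 13 missed it, and the median was 0.08 (corrected 0.02). With the correction 12 of these were higher and 7 lower.

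Among the elongation factors the subunits of the eEF1B exchange complex had the largest rises. Of 6 genes 4 rose and none fell, and the median log2 fold change of the 6 was 0.39; in the corrected fit 4 were higher and 2 lower, with a median of 0.23. EEF1B2, the catalytic exchange subunit eEF1Bα (ENSG00000114942, chromosome 2, 206159585 to 206162928, plus strand; gene positions are from GENCODE 29 on hg38), had 370, 383 and 372 CPM under trastuzumab, against 228, 222 and 235 CPM in parental libraries. The groups lay far apart, and EEF1B2 rose 1.64-fold (log2 fold change 0.72 ± 0.043 SE, edgeR adjusted p = 1.56e-09; corrected 0.65). EEF1G, the scaffold subunit eEF1Bγ (ENSG00000254772, chromosome 11, 62559601 to 62574086, minus strand), had 3131, 3241 and 3034 CPM under trastuzumab, against 2080, 2110 and 2206 CPM in parental libraries. It too was higher in every treated library, by 1.47-fold (log2 0.56 ± 0.040, adjusted p = 1.19e-08; corrected 0.28). Counts of EEF1G and of ENSG00000255508, a protein-coding gene that shares exon bases with it on the same strand, gave a log2 fold change of 0.53 when added together. EEF1D, the further exchange subunit eEF1Bδ, rose by about the same, at 581 ± 33.8 CPM under trastuzumab and 397 ± 16.1 CPM in parental cells (SD, n = 3 each; log2 0.55 ± 0.049, edgeR adjusted p = 1.13e-07; corrected 0.33). The 3 subunits of the exchange complex thus rose in both fits.

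Their client eEF1A did not pass the test in the counts as deposited. EEF1A1, the main eEF1A gene in most tissues (ENSG00000156508, chromosome 6, 73515750 to 73523797, minus strand), had 6595, 6277 and 6710 CPM under trastuzumab, against 6846, 6722 and 6513 CPM in parental libraries. These values overlapped (log2 -0.04 ± 0.038, adjusted p = 0.476), while the corrected value was 0.17 with an adjusted p of 2.62e-05. EEF1A2, the paralog that is normally found in muscle and neurons, was close to absent beside it, with 2.94, 3.72 and 3.44 CPM under trastuzumab, against 4.11, 4.33 and 3.55 CPM in parental libraries. The EEF1A2 libraries overlapped as well (log2 -0.25 ± 0.179, adjusted p = 0.284; corrected -0.61, adjusted p = 0.0114). EEF2, the translocation factor, had 1977, 2098 and 2004 CPM under trastuzumab, against 1675, 1714 and 1771 CPM in parental libraries. The groups did not overlap and the counts as deposited gave a rise (log2 0.24 ± 0.040, adjusted p = 0.000106), but the corrected value was -0.11 with an adjusted p of 0.00147. The direction of EEF2 thus differed between the fits. EEF1D and EEF2 were named beyond the rule for named genes, after their values were seen.

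Per length, the levels of the elongation factors ran from the highest among the factors, in EEF1A1, EEF1G and EEF2, to under 1 FPKM in EEF1A2. In FPKM, which scales the count by gene length and library size, EEF1A1 stood at 1024 ± 36.0 under trastuzumab and 1102 ± 38.6 in parental cells, and EEF1G at 1020 ± 33.4 and 728 ± 14.9 (SD, n = 3 each). In FPKM these 2 did not differ beyond their spread under trastuzumab, whereas in parental cells EEF1A1 was above EEF1G. Next came EEF2 at 433 ± 12.8 FPKM under trastuzumab and 385 ± 7.20 in parental cells, then EEF1B2 at 168 ± 3.0 and 107 ± 2.28, EEF1D at 53.1 ± 3.01 and 38.0 ± 1.28, and EEF1A2 at 0.593 ± 0.067 and 0.743 ± 0.083. Such comparisons between genes rest on the gene length used for scaling, and the exonic length was 5948 bases for EEF1A1 and 2716 for EEF1G. In CPM EEF1A1 was above EEF1G in both groups (6527 against 3135 under trastuzumab, 6694 against 2132 in parental cells).

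**Figure D3:**
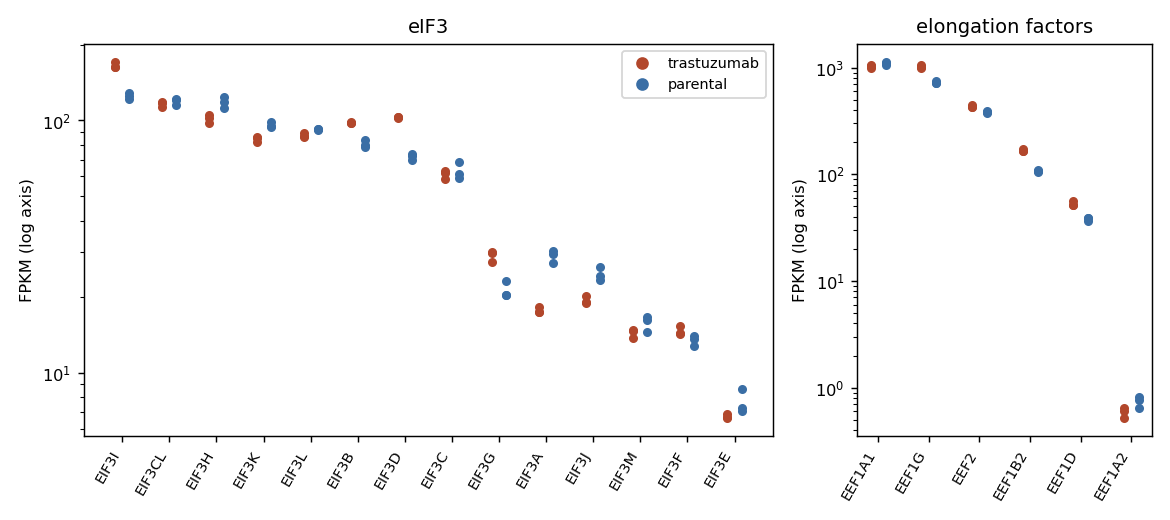
FPKM in each library (vertical log axes, points) of the 14 eIF3 genes and the 6 elongation genes, ordered by mean level, with trastuzumab libraries left of parental ones. EIF3I is the highest eIF3 gene and EIF3E the lowest, and EEF1A1 and EEF1G come close together under trastuzumab (1024 and 1020 FPKM) but not in parental cells (1102 and 728 FPKM). The order between genes rests on the gene length used for scaling, and in CPM EEF1A1 is above EEF1G in both groups.

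Of the 3 eIF5A genes, 2 rose and none fell. EIF5A, the hypusine-carrying factor itself (ENSG00000132507, chromosome 17, 7306999 to 7312463, plus strand), had 757, 812 and 750 CPM under trastuzumab, against 590, 598 and 654 CPM in parental libraries. It was higher in every treated library (log2 0.33 ± 0.048, adjusted p = 2.24e-05), but the corrected value was 0.01 and did not pass. EIF5AL1, a near-identical copy whose reads the authors' counting could split from those of EIF5A, had 24.4, 26.1 and 26.9 CPM under trastuzumab, against 19.8, 18.2 and 19.6 CPM in parental libraries (log2 0.43 ± 0.080, adjusted p = 0.000275; corrected 0.55). Added together, EIF5A and EIF5AL1 gave a log2 fold change of 0.34 with an adjusted p of 1.80e-05. EIF5A2, the paralog amplified in some tumours, had 9.29, 8.72 and 9.81 CPM under trastuzumab, against 9.58, 9.96 and 8.57 CPM in parental libraries. The EIF5A2 groups overlapped (log2 -0.01 ± 0.117, adjusted p = 0.938; corrected 0.49, adjusted p = 0.00193).

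The 4 genes of eIF2, the GTPase that brings the initiator tRNA, were all lower under trastuzumab in every library, and 2 of them passed the test. EIF2S2, the β subunit (ENSG00000125977, chromosome 20, 34088298 to 34112332, minus strand), had 62.7, 58.8 and 64.5 CPM under trastuzumab, against 101, 91.7 and 90.7 CPM in parental libraries. This was a fall in both fits (log2 -0.61 ± 0.057, adjusted p = 2.33e-07; corrected -0.49). EIF2S3, the GTP-binding γ subunit and per length the most abundant of the 4, had 240, 236 and 246 CPM under trastuzumab, against 288, 273 and 276 CPM in parental libraries (log2 -0.21 ± 0.043, adjusted p = 0.000546). Its corrected value was 0.04 and did not pass. EIF2S1, the α subunit that stress kinases phosphorylate, had a log2 fold change of -0.12 (adjusted p = 0.0691) and a corrected value of 0.33 (adjusted p = 2.76e-06). EIF2S3B, a close copy of EIF2S3 with which reads may be shared, had -0.18 and did not pass in either fit. In the corrected fit 1 eIF2 gene was higher and 1 lower. Of the eIF2 genes, EIF2S2 was the one that was lower in both.

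The exchange factor eIF2B, which reloads eIF2 with GTP, went the other way in 2 of its 5 subunits. EIF2B5, the catalytic ε subunit (ENSG00000145191, chromosome 3, 184135038 to 184146112, plus strand), had 273, 276 and 260 CPM under trastuzumab, against 185, 191 and 200 CPM in parental libraries (log2 0.49 ± 0.046, adjusted p = 2.34e-07; corrected 0.47). EIF2B2, the regulatory β subunit, had 64.1, 67.9 and 70.0 CPM under trastuzumab, against 55.6, 52.4 and 58.8 CPM in parental libraries (log2 0.28 ± 0.061, adjusted p = 0.00120; corrected 0.30). Neither gene's groups overlapped, and both rises stood in both fits. The other subunits, EIF2B1, EIF2B3 and EIF2B4, lay between -0.06 and 0.02 and did not pass, though EIF2B4 was lower in the corrected fit (-0.15). The factors that can place initiator tRNA without eIF2 split: EIF2D had 138, 131 and 123 CPM under trastuzumab, against 109, 99.4 and 110 CPM in parental libraries, and EIF2A had 40.3, 36.4 and 40.3 CPM against 56.4, 57.1 and 51.2 CPM. EIF2D rose (log2 0.29 ± 0.056, adjusted p = 0.000334; corrected 0.43). EIF2A fell (log2 -0.49 ± 0.069, adjusted p = 1.6e-05), and its corrected value of -0.11 did not pass.

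The factors of scanning and subunit joining also moved in both directions. EIF1AX, which encodes eIF1A (ENSG00000173674, chromosome X, 20124518 to 20141844, minus strand), had 75.2, 76.9 and 75.1 CPM under trastuzumab, against 147, 130 and 131 CPM in parental libraries. It fell 1.80-fold, about as much as EIF4E below (log2 -0.85 ± 0.054, adjusted p = 3.43e-09; corrected -0.36). EIF5B, the GTPase that joins the large subunit (ENSG00000158417, chromosome 2, 99337353 to 99401326, plus strand), had 53.9, 52.1 and 50.3 CPM under trastuzumab, against 98.9, 87.5 and 83.9 CPM in parental libraries (log2 -0.79 ± 0.064, adjusted p = 4.03e-08; corrected -0.28). eIF1A and eIF5B bind one another on the ribosome, and both transcripts fell in both fits. EIF5, the GTPase-activating factor for eIF2, fell as well (log2 -0.35), but its corrected value was 0.00.

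Higher under trastuzumab were EIF1 and EIF6. EIF1, the guardian of start codon choice, had 671, 690 and 716 CPM under trastuzumab, against 582, 571 and 595 CPM in parental libraries (log2 0.25 ± 0.041, adjusted p = 9.19e-05; corrected 0.22). EIF6, which keeps free large subunits from joining, had 452, 465 and 437 CPM under trastuzumab, against 326, 311 and 350 CPM in parental libraries (log2 0.46 ± 0.048, adjusted p = 7.53e-07). The corrected value of EIF6 was 0.03 and did not pass, while EIF1 stayed higher. EIF1B, the close paralog of EIF1, had 19.8, 18.7 and 21.2 CPM under trastuzumab, against 18.8, 18.7 and 17.7 CPM in parental libraries (log2 0.11, adjusted p = 0.303; corrected 0.38). EIF1AD, a relative of eIF1A, had 0.09 and did not pass in either fit.

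eIF3 did not move as one complex. Of its 14 genes 5 rose, 4 fell and 5 missed the threshold, their median log2 fold change being 0.01. In the corrected fit 9 were higher, 3 lower and 2 not past, and the median was 0.15. The rises were in EIF3D, EIF3G, EIF3I, EIF3B and EIF3F. EIF3D, the cap-binding subunit (ENSG00000100353, chromosome 22, 36510850 to 36529436, minus strand), had 453, 459 and 458 CPM under trastuzumab, against 309, 293 and 309 CPM in parental libraries (log2 0.59 ± 0.042, adjusted p = 9.67e-09; corrected 0.47). EIF3G, an RNA-binding subunit, had 112, 122 and 122 CPM under trastuzumab, against 78.1, 78.7 and 91.1 CPM in parental libraries (log2 0.52 ± 0.063, adjusted p = 3.24e-06; corrected 0.15). EIF3I, which forms a module with EIF3B and EIF3G and was per length the most abundant eIF3 gene, had 328, 344 and 329 CPM under trastuzumab, against 245, 231 and 242 CPM in parental libraries (log2 0.48 ± 0.044, adjusted p = 1.64e-07; corrected 0.20). EIF3B, the scaffold of that module, rose by 0.35 (corrected 0.24), so that its 3 genes were higher in both fits.

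EIF3A was the one eIF3 gene with a larger fall. It encodes the largest subunit, on which the complex is built (ENSG00000107581, chromosome 10, 119033670 to 119080823, minus strand), and had 151, 145 and 144 CPM under trastuzumab, against 237, 231 and 217 CPM in parental libraries. It fell 1.56-fold (log2 -0.64 ± 0.047, adjusted p = 1.64e-08; corrected -0.35). EIF3J, a loosely bound subunit, had 73.1, 69.7 and 68.8 CPM under trastuzumab, against 90.6, 83.8 and 81.8 CPM in parental libraries (log2 -0.28 ± 0.055, adjusted p = 0.000446), and a corrected value of 0.11 (adjusted p = 0.0473). EIF3H, at -0.15 (adjusted p = 0.0106), was likewise on the other side in the corrected fit (0.15, adjusted p = 0.000337), and EIF3K, at -0.11 (adjusted p = 0.0475), was lower in both (corrected -0.38). The calls of EIF3K and EIF3H are weak: the first was lost on leaving out any 1 library (adjusted p = 0.0528 to 0.191), and the second on leaving out trastuzumab replicate 2 (0.0613) or parental replicate 1 (0.0587).

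The remaining eIF3 genes, EIF3C, EIF3CL, EIF3E, EIF3L and EIF3M, lay between -0.12 and 0.03 and did not pass. EIF3E and EIF3M, with the lowest GC content among them, were higher in the corrected fit (0.37 and 0.42), and EIF3CL was lower (-0.23). EIF3C and EIF3CL are near-identical genes whose reads could be split either way by the counting, and their summed level had a log2 fold change of 0.03 (adjusted p = 0.635). Per length, eIF3 transcripts were far from equal. EIF3I stood at 166 ± 4.19 FPKM under trastuzumab and 125 ± 3.82 in parental cells, EIF3H at 102 ± 3.51 and 118 ± 6.13, EIF3D at 103 ± 0.438 and 71.7 ± 2.02, EIF3G at 29.1 ± 1.38 and 21.3 ± 1.66, and EIF3E at 6.72 ± 0.117 and 7.65 ± 0.865 (SD, n = 3 each). In FPKM, EIF3D and EIF3H did not differ beyond their spread in trastuzumab libraries, and in parental libraries EIF3H was above EIF3D. This order rests on the gene length used for scaling, and the exonic length was 1725 bases for EIF3I, 4070 for EIF3D and 6434 for EIF3H. In CPM EIF3H averaged 764 under trastuzumab and 845 in parental cells, above EIF3D (457 and 303) and EIF3I (333 and 239).

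**Figure D4:**
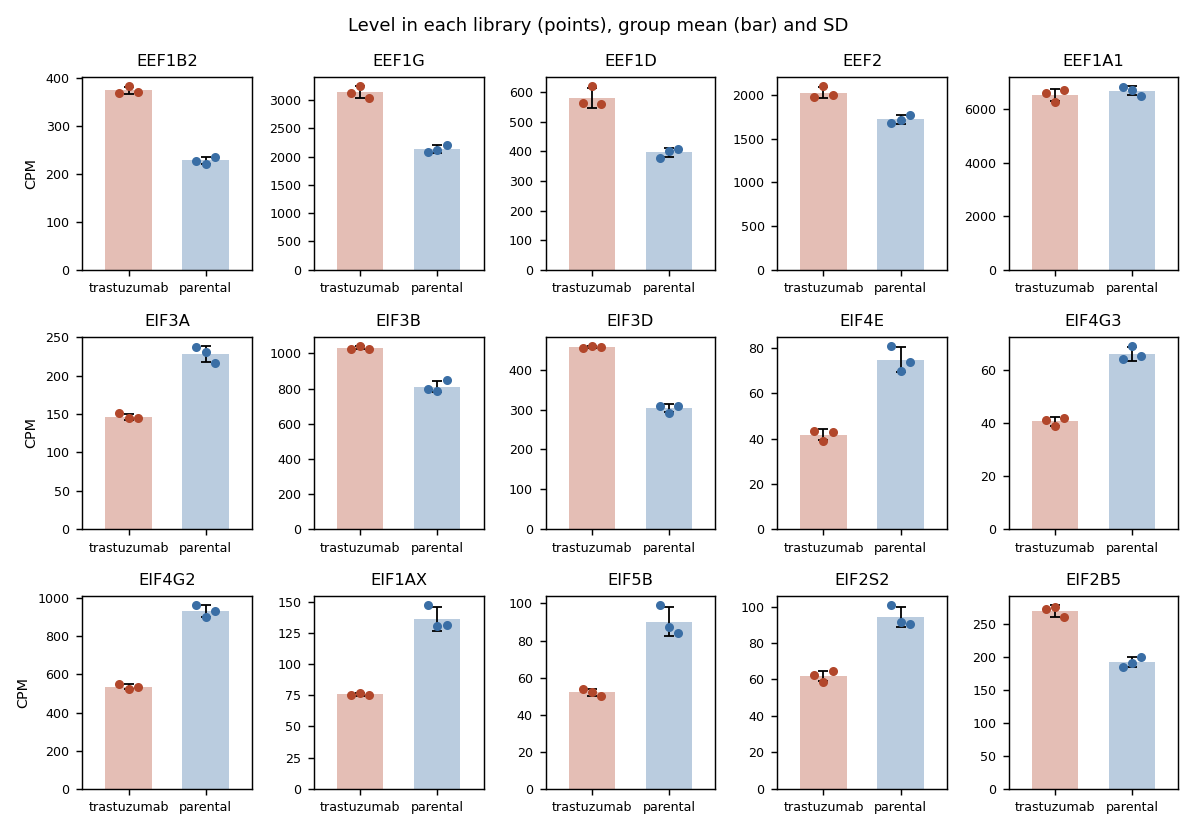
CPM (vertical axes, from 0) of 15 factors in each library (points) with the group mean (bar) and SD (error bar, n = 3), trastuzumab left of parental. The groups are apart for every gene shown but EEF1A1, whose libraries overlap between 6277 and 6846 CPM.

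In eIF4F and its helpers no gene rose, 3 of 7 fell and 4 missed the threshold, and the falls were in the cap-binding protein EIF4E, the scaffold paralog EIF4G3 and the helicase paralog EIF4A2. EIF4E (ENSG00000151247, chromosome 4, 98871684 to 98930637, minus strand) had 43.3, 39.0 and 43.2 CPM under trastuzumab, against 81.1, 70.1 and 73.7 CPM in parental libraries. The groups were far apart, with a 1.79-fold fall (log2 -0.84 ± 0.068, adjusted p = 3.98e-08), and the corrected value was -0.26 (adjusted p = 0.000706). EIF4G3, the less abundant scaffold gene (ENSG00000075151, chromosome 1, 20806292 to 21176888, minus strand), had 41.1, 38.7 and 41.9 CPM under trastuzumab, against 64.1, 69 and 65.0 CPM in parental libraries (log2 -0.70 ± 0.061, adjusted p = 9.67e-08; corrected -0.47). EIF4G1, the main scaffold, had 1559, 1516 and 1560 CPM under trastuzumab, against 1381, 1456 and 1580 CPM in parental libraries, which overlapped (log2 0.07, adjusted p = 0.242; corrected -0.09, adjusted p = 0.0360).

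EIF4H, a helper of the helicase and per length the most abundant gene of this group, had 553, 579 and 594 CPM under trastuzumab, against 584, 601 and 591 CPM in parental libraries (log2 -0.04, adjusted p = 0.458; corrected -0.18). EIF4B, the other helper, had 0.09 and did not pass (corrected 0.16). EIF4A2, a helicase paralog, had 198, 196 and 195 CPM under trastuzumab, against 240, 222 and 211 CPM in parental libraries (log2 -0.19 ± 0.050, adjusted p = 0.00364), with a corrected value of 0.21. In the corrected fit 2 of the 7 were higher and 4 lower. EIF4E and EIF4G3 were lower in both fits.

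EIF4A1, the main helicase gene (ENSG00000161960, chromosome 17, 7572706 to 7579005, plus strand), shares exons on the same strand with the read-through gene SENP3-EIF4A1, and the 2 traded counts between libraries. EIF4A1 had 879, 357 and 829 CPM under trastuzumab, against 791, 646 and 670 CPM in parental libraries. SENP3-EIF4A1 had 15.9, 635 and 60.4 CPM under trastuzumab, against 43.9, 172 and 215 CPM in parental libraries. Trastuzumab replicate 2 thus stood apart, with 64.0% of the counts of both at the read-through gene, against 1.78% to 24.3% in the other 5 libraries. EIF4A1 alone had a log2 fold change of -0.03 with an SE of 0.398, which leaves its change undetermined. The sum of both was 895, 992 and 889 CPM under trastuzumab, against 835, 818 and 885 CPM in parental libraries, with a log2 fold change of 0.13 ± 0.049 (adjusted p = 0.0375). Without trastuzumab replicate 2 EIF4A1 alone gave 0.28 (adjusted p = 0.0210). The sum was added after the split was seen, and the counting rule behind the split is not given in the sources used here.

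**Figure D5:**
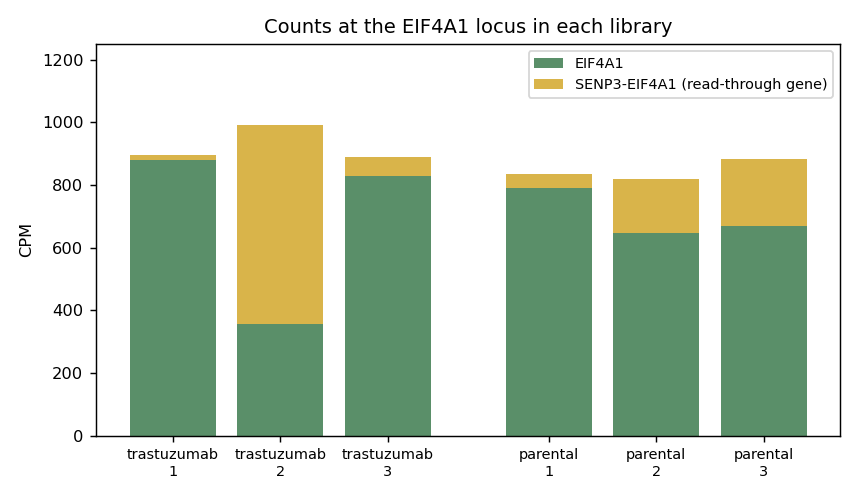
CPM (vertical axis, from 0) at EIF4A1 and at the read-through gene SENP3-EIF4A1, stacked, in each of the 3 trastuzumab and the 3 parental libraries. The stack is 818 to 992 CPM high in all 6, while the read-through part is 635 CPM in trastuzumab replicate 2 and 15.9 to 215 CPM in the others.

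Among the relatives of the eIF4F subunits EIF4G2 fell and EIF4A3 rose. EIF4G2, also called DAP5, a scaffold without the eIF4E-binding part that works in cap-independent and alternative initiation (ENSG00000110321, chromosome 11, 10797050 to 10809110, minus strand), had 550, 522 and 533 CPM under trastuzumab, against 961, 900 and 930 CPM in parental libraries. The fall was 1.74-fold with a small error (log2 -0.80 ± 0.042, adjusted p = 3.57e-10; corrected -0.46), and it had the lowest adjusted p of all tested factors. EIF4A3, the helicase of the exon junction complex, had 293, 297 and 287 CPM under trastuzumab, against 241, 239 and 260 CPM in parental libraries (log2 0.24 ± 0.046, adjusted p = 0.000271; corrected 0.24). EIF4E2, the cap-binding repressor also called 4EHP, had 67.8, 69.9 and 70.7 CPM under trastuzumab, against 63.6, 65.4 and 67.0 CPM in parental libraries (log2 0.09, adjusted p = 0.189; corrected 0.18). EIF4ENIF1, which carries eIF4E into the nucleus, had 0.12 and did not pass in either fit, and the low-level EIF4E3 had 0.42 ± 0.212 (adjusted p = 0.116; corrected 0.98).

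The balance between paralogs was compared in 6 pairs as the log2 ratio of CPM in each library, for which 3 libraries against 3 allow no exact permutation p below 0.10. The ratio of EIF4E2 to EIF4E was 0.65, 0.84 and 0.71 under trastuzumab, against -0.35, -0.10 and -0.14 in parental libraries, a difference of 0.93 (two-sided exact permutation p = 0.1, adjusted over the 6 pairs 0.15). In FPKM, EIF4E2 made up 78.1 ± 1.20% of the pair under trastuzumab and 65.2 ± 2.11% in parental cells (SD, n = 3 each). This share rests on the gene length used for scaling, and the exonic length was 7177 bases for EIF4E2 and 14067 for EIF4E. In CPM, EIF4E2 averaged 69.5 and EIF4E 41.8 under trastuzumab. In parental cells EIF4E2, at 65.3 CPM, was below EIF4E, at 75.0 CPM. The ratio of EIF4G3 to EIF4G1 differed by -0.77, that of EIF5A2 to EIF5A by -0.35 and that of EIF1B to EIF1 by -0.14, with no overlap between groups and the same exact p of 0.1 (adjusted 0.15). EEF1A2 over EEF1A1 differed by -0.21 (exact p = 0.2, adjusted 0.24) and EIF4A2 over EIF4A1 by -0.06 (exact p = 1). The latter ratio was -2.15, -0.87 and -2.09 under trastuzumab, against -1.72, -1.54 and -1.67 in parental libraries. Trastuzumab replicate 2 is the library with 64.0% of the EIF4A1 and SENP3-EIF4A1 counts at the read-through gene. The balance of EIF4A2 and EIF4A1 is therefore undetermined in both fits. After the correction for GC content and length EIF4E2 over EIF4E differed by 0.44, EIF4G3 over EIF4G1 by -0.38 and EEF1A2 over EEF1A1 by -0.78, and the signs of EIF5A2 over EIF5A (0.48), EIF1B over EIF1 (0.16) and EIF4A2 over EIF4A1 (0.43) were the other way.

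Summed over all members the factors took 2.51 ± 0.049% of the counts under trastuzumab and 2.43 ± 0.017% in parental cells (SD, n = 3 each). Their summed level was 25577 ± 340 CPM under trastuzumab and 23840 ± 216 CPM in parental cells, a ratio of 1.07, and the groups did not overlap. Elongation factors made up most of that rise, at 12649 ± 31.6 CPM under trastuzumab and 11175 ± 36.6 CPM in parental cells (ratio 1.13). eIF3 summed to 4874 ± 18.9 and 4544 ± 75.0 CPM (ratio 1.07), eIF5A to 808 ± 33.7 and 642 ± 34.5 CPM (1.26) and eIF2B to 473 ± 6.36 and 385 ± 13.0 CPM (1.23). eIF2 summed to 423 ± 9.06 CPM under trastuzumab and 504 ± 20.2 CPM in parental cells (ratio 0.839), and the eIF4F relatives to 936 ± 13.9 and 1277 ± 30.3 CPM (0.732). eIF4F overlapped between the groups, at 3765 ± 326 and 3771 ± 42.8 CPM, where the low EIF4A1 count of trastuzumab replicate 2 entered. Sums in CPM weight long and abundant transcripts, and they describe RNA and not protein. They come from the counts as deposited, with no correction for GC content and length. The elongation genes had a median GC content of 56.6%, against 49.7% over all tested genes. In the corrected fit EEF2 was lower (-0.11) and the log2 fold change of EEF1G was 0.28 in place of 0.56.

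Of the 31 called factors, 18 kept their call in all of the 23 alternatives tried (EIF5AL1 in the 22 that apply to it), 11 being higher and 7 lower. The higher ones were EEF1B2, EEF1D, EEF1G, EIF3B, EIF3D, EIF3G, EIF3I, EIF2B5, EIF4A3, EIF5AL1 and EIF1. The lower ones were EIF2S2, EIF3A, EIF4E, EIF4G3, EIF4G2, EIF1AX and EIF5B. With the alternatives on base composition put aside, 26 of the 31 kept theirs. The call of EIF5AL1 may not be independent of EIF5A, its near-identical copy, with which reads could be shared. EIF5AL1 held 2.90% to 3.46% of the summed CPM of both in every library. Its correction used its own GC content of 45.6%, against 56.1% for EIF5A, whose corrected value of 0.01 did not pass.

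Around these factors, the genes that control them moved as follows. Counts in this list and in the lists after it stand against 23.9% higher and 25.4% lower among all tested genes. Among genes of at least 10 CPM the shares were 35.8% and 37.0%, and in the corrected fit over all genes 18.1% and 19.9%. Of 8 genes of the eIF2 phosphorylation cycle 2 rose and 6 fell. PPP1R15A, the stress-induced phosphatase subunit GADD34, had 26.1, 26.3 and 25.2 CPM under trastuzumab, against 12.3, 13.2 and 12.1 CPM in parental libraries (log2 1.05 ± 0.084, adjusted p = 3.66e-08; corrected 0.69). It was higher in each treated library. GCN1, the activator of the kinase GCN2, rose by 0.24 (corrected 0.11), the kinase gene EIF2AK2, encoding PKR, fell by 0.54 on the log2 scale (corrected 0.03) and the constitutive phosphatase subunit PPP1R15B fell by 0.43 (corrected -0.16). In the corrected fit 3 of the 8 were higher and 2 lower.

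Of 14 genes that control eIF4F 2 rose and 7 fell, and 1 and 3 in the corrected fit. EIF4EBP1, the main mTOR-regulated inhibitor of eIF4E, had a log2 fold change of 0.43 (adjusted p = 0.000128; corrected -0.04), and GIGYF1, a partner of EIF4E2, 0.40 (corrected 0.11). EIF4EBP2, a second inhibitor, fell by 0.36 (corrected -0.02), and PAIP1, a partner of the poly(A)-binding protein, fell by 0.38 (corrected -0.20). Of 16 enzymes and partners that modify elongation factors or eIF5A 7 rose and 2 fell, led by DPH2 of the diphthamide pathway of eEF2 (0.61, corrected 0.24) and METTL13, an eEF1A methyltransferase (0.56, corrected 0.45). The falls were in DNAJC24 (-0.46, corrected 0.11) and DPH3 (-0.38, corrected -0.01), both of the diphthamide pathway.

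The ribosome's own protein genes moved almost all one way. Of 79 cytosolic ribosomal protein genes 71 rose, 8 missed the edgeR threshold and none fell, the median log2 fold change being 0.53. After correction 66 were higher and none lower, with a median of 0.43. Among the complexes the median of the elongation factors (0.39, corrected 0.23) was the nearest to this in the counts as deposited. In the corrected fit that of the 3 eIF5A genes (0.33, corrected 0.49) was the nearest. That corrected median is the value of EIF5A2, a gene of 9.28 CPM under trastuzumab and 9.37 CPM in parental cells. EIF5A itself, at 773 and 614 CPM, had a corrected value of 0.01 that did not pass the test. The medians of eIF3 (0.01, corrected 0.15), eIF2 (-0.20, corrected 0.04) and eIF4F (-0.04, corrected -0.11) were lower than those of the ribosomal protein genes. The corrected eIF4F median is the value of EIF4A1 (SE 0.399), whose change the split with its read-through gene leaves undetermined. No test of the difference between these lists was made.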

How the data were processed

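RNA of 6 SKBR3 libraries was sequenced from a directional NEBNext Ultra II kit with 1 µg of total RNA, per the labels' protocols. The authors deposited raw counts per gene (60612 genes, no normalization) and FPKM, scaled by gene length and library size, for 33686 genes. The submitters' processing notes name STAR 2.4.2a and hg38; not given in the sources used here are the counting program, its strand setting, annotation and filters. Where genes overlap on the same strand, reads from the shared bases cannot be told apart. Whether this also holds for opposite strands depends on the strand setting, which is not given. Of the 55 factors, 29 share exon bases with another gene that had counts, 7 of them on the same strand. GENCODE 29 gave gene positions, exonic length and GC content.

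Counts were tested with edgeR 4.0.16 (R 4.3.3): TMM factors, filterByExpr, quasi-likelihood F test with robust dispersion, all 6 libraries, trastuzumab minus parental, adjusted p below 0.05 by Benjamini-Hochberg over all 17854 tested genes. Log2 fold changes are given ± SE. The corrected fit took a spline trend of 5 degrees of freedom on GC content and exonic length out of each library as offsets. The median biological coefficient of variation of the factors was 0.0621. Alternatives used DESeq2 1.42.0 and limma 3.58.1 (limma-voom, and log2 of FPKM plus 1 or 0.1 for genes of at least 1 FPKM in 3 libraries). On simulated counts for these libraries, 55.7% of 97 genes changed by 0.5 on the log2 scale and 62.5% of 96 changed by 1 were recovered among 17343 genes at all levels, 89.9% of the 109 changed genes of at least 10 CPM were recovered over both sizes, and 0.0991% of unchanged genes were called. The simulation changed a far smaller share of genes than the 49.3% called in the data, so its rates need not hold for the calls given here. No 2 replicates of a group differed by as little as sampling noise (chi-square per degree of freedom 20.8 to 37.0), so each counted as 1 sample. Replicate numbers did not pair the samples. The floor of 3 counts covers counting error only, while each SE and SD holds the spread among these libraries.

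Named in every library were, in each complex, the called genes with the 2 largest rises and falls, the gene of highest FPKM and both genes of each paralog pair; of each list of other genes, at most 2 rises and 2 falls of at least 1 CPM in the higher group. The factors, lists and rules were chosen with earlier results of these data known.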

Additional observations from a re-analysis of the deposited data

How the results depend on the processing

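Over the 23 alternatives 14 to 27 factors were higher and 12 to 19 lower. Removing the trend on GC content and length moved the counts most: 26 factors were higher (27 with GC content alone), with 9 higher in eIF3 in both versions, 2 in eIF4F, 3 (GC content alone 2) in the eIF4F relatives and 1 (GC content alone 2) in eIF2, while 1 was lower in eIF2, 0 among the eIF2-independent genes, 1 in eIF2B and 2 in elongation. The log2 fold changes that changed sign there and passed the threshold with or without the correction were, with GC content and length and then with GC content alone, EIF2S1 (0.33, 0.34), EIF2S3 (0.042, 0.11), EIF2B4 (-0.15, -0.17), EIF3CL (-0.23, -0.19), EIF3E (0.37, 0.36), EIF3H (0.15, 0.12), EIF3J (0.11, 0.19), EIF3M (0.42, 0.36), EIF4A2 (0.21, 0.20), EIF4G1 (-0.092, -0.22), EIF5A2 (0.49, 0.49), EEF1A1 (0.17, 0.14) and EEF2 (-0.11, -0.10), EIF5 in the first alone (0.0045) and EIF3C in the second alone (-0.16). The paralog ratios of EIF4A2 over EIF4A1 (0.43), EIF5A2 over EIF5A (0.48) and EIF1B over EIF1 (0.16) changed sign with it too. The cause was not tested. The replicate numbers pair nothing in the labels, and same-numbered libraries correlated at 0.24, -0.017 and 0.031 (8947 genes); as a block they gave 17 higher and 13 lower factors, and not every library correlated best with its own number. The replicate block with the correction for GC content and length gave 25 higher and 13 lower, with 8 higher in eIF3, 2 in eIF4F, 3 in the relatives and 1 in eIF2, and 1 lower in eIF2, 0 among the eIF2-independent genes, 1 in eIF2B and 2 in elongation; its changes of sign, counted in the same way, were EIF2S1 (0.33), EIF2S3 (0.042), EIF2B4 (-0.15), EIF3CL (-0.23), EIF3E (0.37), EIF3H (0.15), EIF3J (0.11), EIF3M (0.42), EIF4A2 (0.21), EIF5A2 (0.49), EEF1A1 (0.17), EEF2 (-0.11) and EIF5 (0.0042). Upper quartile scaling gave 2 higher genes in eIF4F and 2 in the relatives and 2 lower in eIF3, an adjusted p below 0.01 gave 2 lower in eIF3, and DESeq2 and a mean of at least 1 CPM gave 1 higher in eIF4F each. limma on log2 FPKM, with either pseudocount, gave 4 lower in eIF2, 1 in eIF2B and 1 in elongation; without a filter it gave 1 lower and 1 higher in eIF2B and 0 higher among the eIF2-independent genes. Leaving out each library in turn gave 17 to 18 higher and 12 to 14 lower factors, 0 to 1 higher in eIF4F, 1 to 2 higher in the relatives, 2 to 3 lower in eIF3 and a ratio of EIF4A2 over EIF4A1 from -0.48 to 0.16, which was positive without trastuzumab replicate 1 (0.16) or 3 (0.13). EIF4A1 ranged from -0.24 to 0.28 on leaving out each library, changing sign without trastuzumab replicate 2 (0.28) and when summed with its read-through gene (0.13), an alternative added after the data were seen that gave 1 higher in eIF4F and 1 in eIF5A. With 3 libraries a group, exact tests of the paralog ratios could reach no p below 0.10, and EIF2S3B, EIF4E3, EEF1A2 and EIF5A2, all under 10 CPM, had SEs of 0.117 to 0.212 on the log2 scale.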

Other observations

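Later and neighbouring steps of translation, not described above, held more falls than rises in the counts as deposited (edgeR, adjusted p below 0.05). Of all tested genes 25.4% were lower, and of those of at least 10 CPM 37.0%. The median GC content was 43.0% for termination and recycling, 41.7% for initiation partners and 43.1% for mitochondrial factors. It was 48.6% for the synthetases and 49.7% over all tested genes. Of 7 tested genes of termination and ribosome recycling, 6 were lower under trastuzumab and 1 missed the threshold, the median log2 fold change being -0.41 (corrected -0.02). ABCE1, the ATPase that splits the ribosome after termination, had 74.1, 65.1 and 68.1 CPM under trastuzumab, against 119, 113 and 107 CPM in parental libraries (log2 -0.71 ± 0.059, edgeR adjusted p = 5.52e-08; corrected -0.24). HBS1L, a rescue factor for stalled ribosomes, fell by 0.50 on the log2 scale, with a corrected value of 0.07. In the corrected fit 2 of the 7 were lower. None was higher by edgeR, also at an unadjusted p below 0.05, or by DESeq2.

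Of 5 helicases and other partners of initiation 4 fell and 1 missed the threshold. DHX29, a helicase for structured leaders, had 16.6, 14.7 and 13.5 CPM under trastuzumab, against 28.2, 26.1 and 24.8 CPM in parental libraries (log2 -0.82 ± 0.093, edgeR adjusted p = 1.64e-06; corrected -0.45). DDX3X fell by 0.48 (corrected 0.07). Of 9 mitochondrial translation factors 2 rose and 4 fell (in the corrected fit 1 was higher, 1 lower and 7 not past the test), with TUFM at 0.33 (corrected -0.07) and TSFM at 0.31 (corrected 0.25), and with MRRF at -0.57 (corrected -0.23) and GFM1 at -0.50 (corrected 0.00). Of 20 cytosolic aminoacyl-tRNA synthetase genes 4 rose, 12 fell and 4 missed the threshold (median -0.22), and in the corrected fit 3 were higher and 12 lower (median -0.19).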
